A study of Homo sapiens with 24 samples.

Results

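The genes described here are 10 members of the BCL2 family: BCL2L1, MCL1, BAX, BAK1, BBC3, PMAIP1, BCL2L11, BID, BIK and BMF. They were found by matching the gene identifiers of the count table to these symbols. All 10 were present among the 14585 genes of the table. Of these members, 8 promote apoptosis and 2, BCL2L1 and MCL1, oppose it. A549, a human lung adenocarcinoma line labelled as wild type in genotype, and Huh7, a human hepatocellular carcinoma line with the same label, were kept as control or exposed to extract from Pulsatilla chinensis, Bupleurum chinense or Polyporus umbellatus. Each of the 8 groups had 3 replicates, which gave 24 libraries of ribosome-depleted total RNA. The extracts were ethanolic and were dissolved in DMSO, and the dose and duration used for the sequenced cells, as well as the vehicle of the control, are not given in the sources used here. Each line is a single established line, and nothing in the labels says whether replicates were separate cultures, so the p-values measure the spread between these samples, which may be technical.

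BCL2 family proteins decide whether the outer mitochondrial membrane stays intact. The guardians, which include BCL-XL (from BCL2L1) and MCL1, bind and hold back the effectors BAX and BAK1, which otherwise form pores that release cytochrome c and lead to caspase activation. BH3-only proteins sense stress and either neutralise the guardians or activate the effectors directly. BBC3 (PUMA), PMAIP1 (NOXA) and BAX are textbook transcriptional targets of p53, BCL2L11 (BIM) is a known target of FOXO factors, and much of the control of the family lies in protein stability and phosphorylation, which RNA does not show. A549 carries wild-type p53 and Huh7 a mutant p53.

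Upstream sequences were searched on both strands for 4 motifs: the p53 half-site, TGANTCA (AP-1), TGATGCAA (C/EBP-ATF) and GTAAACA (FOXO). The p53 half-site was the decamer RRRCWWGYYY, where R is A or G, W is A or T and Y is C or T. It is not a full p53 site. The windows run from 250 bases before to 50 bases after a RefSeq start on GRCh38.p14, and 8 of the 10 members had an entry (MCL1 and BIK had none), with 14 windows in all. Only 3 windows held a match, and the 250 upstream bases of each are printed. Capitals mark the match: AP-1 in BBC3, a single p53 half-site in BAK1 and FOXO in BCL2L11.
BBC3, chr19:47232668-47232917, minus strand: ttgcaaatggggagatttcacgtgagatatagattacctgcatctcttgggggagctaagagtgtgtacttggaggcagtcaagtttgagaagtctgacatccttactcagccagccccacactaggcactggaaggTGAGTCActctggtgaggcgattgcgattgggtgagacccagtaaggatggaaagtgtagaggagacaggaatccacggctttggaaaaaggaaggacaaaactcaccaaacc
BAK1, chr6:33580277-33580526, minus strand: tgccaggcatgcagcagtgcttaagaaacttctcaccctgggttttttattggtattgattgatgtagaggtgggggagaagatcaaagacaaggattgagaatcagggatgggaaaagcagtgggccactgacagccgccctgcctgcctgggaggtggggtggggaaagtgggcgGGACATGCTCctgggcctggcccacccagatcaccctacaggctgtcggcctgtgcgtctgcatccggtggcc
BCL2L11, chr2:111120664-111120913, plus strand: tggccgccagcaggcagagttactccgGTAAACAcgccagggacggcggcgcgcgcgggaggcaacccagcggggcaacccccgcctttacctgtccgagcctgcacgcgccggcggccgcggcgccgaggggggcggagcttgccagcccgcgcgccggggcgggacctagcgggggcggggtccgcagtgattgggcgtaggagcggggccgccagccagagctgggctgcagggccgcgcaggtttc
Counted with the start base as 0, the BBC3 match lies at -113 to -107, the BAK1 match at -73 to -64 and the BCL2L11 match at -223 to -217. The gene positions given further on are from GENCODE, and their ends differ from these RefSeq starts. The printed BCL2L11 bases lie inside the GENCODE gene, and those of BBC3 and BAK1 lie partly inside theirs. Among 35116 promoter windows of the same length, the p53 half-site was found in 6.63%, TGANTCA in 7.71%, GTAAACA in 3.42% and TGATGCAA in 0.87%. Whether the members' windows hold more matches than these shares was not tested. The matches describe the letters of the windows and do not show that a factor binds there.

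Library totals ranged from 6803648 to 17175519 estimated counts in A549 and from 7182412 to 24345364 in Huh7. Markers of both lines were compared in CPM, counts scaled to a common library size. Of 7 listed lung epithelial genes, 4 were in the table. KRT81, a keratin, lay between 2210 and 3330 CPM in A549 and at no more than 0.598 CPM in Huh7. KRT7 lay between 1500 and 1790 CPM in A549 and at no more than 0.131 CPM in Huh7. ALDH3A1 lay between 1280 and 3690 CPM in A549 and at no more than 1.78 CPM in Huh7. The summed level of 9 hepatocyte genes lay between 13320 and 23610 CPM in Huh7 and at no more than 138.6 CPM in A549. Marker sums moved with treatment, and their part in the results was not tested. The hepatocyte sum lay between 20480 and 20920 CPM in the Huh7 controls and between 13320 and 14240 CPM with P. chinensis. In A549 it lay between 120.5 and 138.6 CPM in control and between 52.52 and 64.81 CPM with the extracts. There HNF4A alone lay between 44.5 and 121 CPM, and APOH, the next highest, reached 10.5 CPM at most. The sum of 5 mesenchymal genes was at most 11.05 CPM in A549, and in Huh7 it lay between 12.2 and 14.44 CPM in control and between 20.58 and 30.06 CPM with P. chinensis. The sum of the 3 leukocyte genes in the table lay between 18.63 and 21.22 CPM in the A549 controls and between 23.34 and 29.99 CPM with the extracts, and in Huh7 it lay between 31.42 and 33.92 CPM in control and between 43.1 and 45.86 CPM with P. chinensis. Mitochondrially encoded genes took 1.934% to 4.375% of counts. NKX2-1, SFTPC and NAPSA were not among the genes of the table. SFTPB, a surfactant gene, went the other way with overlap, at 0.99 to 2.73 CPM in A549 and 2.13 to 5.27 CPM in Huh7. One group stood apart. In Huh7 treated with P. umbellatus, the pairs of replicates that include replicate 2 differed by 13.28 and 17.64 times the variance of sampling, and the remaining pair by 5.36 times, against 2.74 to 4.29 times for the pairs of the other 7 groups. Across 13875 genes, the log2 fold change of this group against control fell with the GC content of the transcript (r = -0.61), whereas r lay between -0.09 and 0.11 for the other 5 comparisons with control. Genes are not independent replicates, so these coefficients are descriptions. The members' changes against control in Huh7 with P. umbellatus are therefore given, as values or calls, with and without replicate 2 and after a correction. The correction removes from each library any trend with GC content and transcript length, whatever its source. Ratios of pro- to anti-apoptotic members and the genes of other lists were not recomputed in these ways.

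In control cells the family had a different make-up in each line. In bulk RNA, fewer cells that express a gene and less of its RNA per cell cannot be told apart. Levels were compared between genes as CPM per kb of the longest coding transcript (mean ± SD, n = 3). In A549, BAX had the highest level (83.0 ± 8.0), ahead of BCL2L1 (72.3 ± 3.4) and MCL1 (50.5 ± 2.6), and the ranges of BAX and BCL2L1 overlapped. BID (14.6 ± 1.0), BAK1 (11.1 ± 2.0), BCL2L11 (7.55 ± 0.61) and PMAIP1 (6.40 ± 0.92) came next, and the ranges of BCL2L11 and PMAIP1 overlapped. BBC3 (2.05 ± 0.57), BIK (0.773 ± 0.045) and BMF (0.187 ± 0.126) were lowest. In Huh7 the guardians led, with BCL2L1 at 147.8 ± 2.3 and MCL1 at 80.5 ± 1.7. BAX (29.0 ± 1.7) and BID (25.1 ± 2.6) followed without overlap, then BAK1 (13.5 ± 0.09), BCL2L11 (9.37 ± 0.31), BMF (5.87 ± 0.56), PMAIP1 (2.596 ± 0.20), BBC3 (1.33 ± 0.56) and BIK (0.197 ± 0.174). No other neighbours in these orders had overlapping ranges. The order depends on the length used, since the transcripts of some genes vary much in size: with the median coding transcript in place of the longest, BAX in A549 stood at 225.9 and BMF in Huh7 at 41.0.

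**Figure D1:**
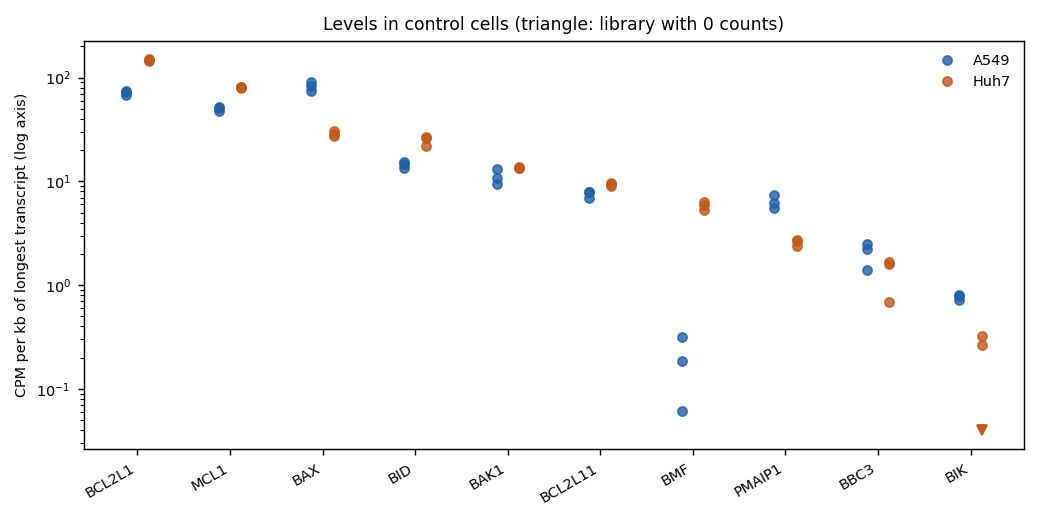
Level of each of the 10 members in the 3 control libraries of A549 (blue) and Huh7 (orange), as CPM per kb of the longest coding transcript on a log axis, 1 point per library. BAX and PMAIP1 sit higher in A549, whereas BCL2L1, MCL1, BID and BMF sit higher in Huh7, and the triangle marks the Huh7 control library with 0 counts for BIK.

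Between the control groups, 8 of 10 members differed in edgeR's quasi-likelihood test, beside 70.7% of the 14584 genes tested, so that share is not particular to the family. Relative to Huh7, A549 had more BAX (log2 fold change 1.52 ± 0.08 SE, adjusted p = 3.75e-13), PMAIP1 (1.28 ± 0.13, adjusted p = 8.84e-09) and BIK (1.37 ± 0.68, adjusted p = 0.0123), all pro-apoptotic. It had less BCL2L1 (-1.03 ± 0.10, adjusted p = 7.56e-09) and MCL1 (-0.67 ± 0.07, adjusted p = 1.04e-08), and also less of the pro-apoptotic BID (-0.78 ± 0.11), BCL2L11 (-0.31 ± 0.08) and BMF (-4.74 ± 0.29, adjusted p = 8.7e-13). BMF, a BH3-only protein known from work on cell detachment, showed the widest gap: its counts in the A549 controls were 7, 15 and 3, and in the Huh7 controls 488, 480 and 670. BAK1 (-0.28, adjusted p = 0.123) and BBC3 (0.58, adjusted p = 0.0993) did not pass the threshold of an adjusted p of 0.05.

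All 10 members passed the filter on low counts (a mean above 5 over the 12 libraries) in each line. From here on, a member counts as called when its adjusted p in edgeR's test is below 0.05, and CPM values are on the scale of each line. In A549, 6 members rose under P. chinensis, 4 under B. chinense and also 4 under P. umbellatus, and with each extract 1 member, BCL2L11, fell. Over all genes, 15.8%, 13.1% and 13.4% rose and 17.1%, 15% and 14.8% fell. The members that rose under every extract came from each role: the guardians BCL2L1 and MCL1, the effector BAX and the BH3-only gene BBC3. The 3 comparisons share their control libraries and are not independent of each other. The median log2 fold change of the members was 0.611 for P. chinensis, then 0.394 (B. chinense) and 0.362 (P. umbellatus), beside 0.014, -0.002 and -0.012 over all genes tested.

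**Figure D2:**
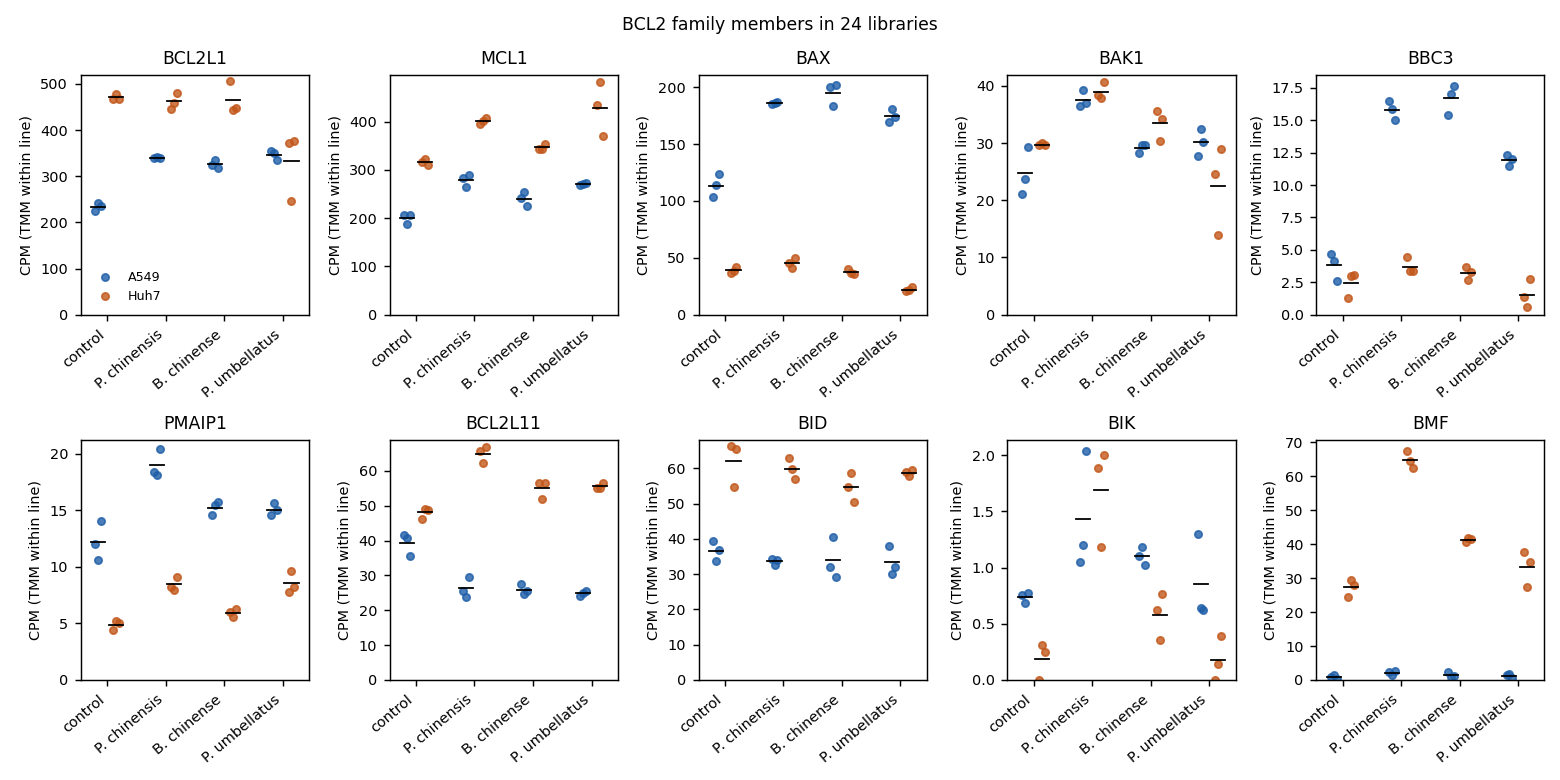
CPM of the 10 members in every library, with a panel per member, control and extracts along the horizontal axis, A549 in blue and Huh7 in orange, 1 point per library and a bar at the mean of 3. BBC3, BAX and BCL2L1 rise in A549 with each extract and BCL2L11 falls, while in Huh7 BMF rises most clearly, to between 62.6 and 67.4 CPM with P. chinensis.

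BBC3, on chr19:47220822-47232766, encodes PUMA, a BH3-only protein that binds all guardians. In A549 its level was 4.69, 4.13 and 2.603 CPM in the control libraries. It was 16.5, 15.9 and 14.99 CPM with P. chinensis, 15.4, 17.1 and 17.7 CPM with B. chinense, and 12.3, 11.5 and 12.03 CPM with P. umbellatus. Every treated library lay above every control library. The log2 fold changes were 2.01 ± 0.18 (SE, adjusted p = 8.61e-07), 2.09 ± 0.19 (adjusted p = 1.07e-06) and 1.61 ± 0.19 (adjusted p = 1.14e-05), or 4.03-, 4.26- and 3.06-fold, and these were the largest called changes among the members in A549. In Huh7 the control libraries had 1.25, 2.96 and 3.09 CPM, and those with P. chinensis 4.42, 3.39 and 3.33 CPM, above every control. B. chinense (3.65, 2.70 and 3.31 CPM) and P. umbellatus (1.34, 0.576 and 2.75 CPM) overlapped the controls. None of the Huh7 changes passed the threshold, with log2 fold changes of 0.59 (95% interval -0.19 to 1.37, adjusted p = 0.315), 0.38 (-0.43 to 1.19, adjusted p = 0.797) and -0.55 (-1.44 to 0.34, adjusted p = 0.336). With P. umbellatus the value was -0.21 without replicate 2 (adjusted p = 0.719) and -1.21 without replicate 3 (adjusted p = 0.0475), and after the correction for GC content and transcript length its direction turned (0.48, adjusted p = 0.352). BBC3 had 25 to 74 counts in the Huh7 controls and 27 to 42 in the A549 controls.

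BAX, on chr19:48954815-48961798, encodes the cytosolic effector that moves to mitochondria. In A549 the controls had 103.2, 113.9 and 123.3 CPM. The libraries with P. chinensis had 185, 186 and 187 CPM, those with B. chinense 200.4, 183 and 202 CPM, and those with P. umbellatus 169.8, 181 and 174 CPM, with no overlap with control. BAX therefore rose by 0.71 ± 0.06 (adjusted p = 6.31e-07), 0.78 ± 0.06 and 0.62 ± 0.06 on the log2 scale, or 1.64-, 1.72- and 1.54-fold. In Huh7 the controls had 36.8, 38.8 and 41.5 CPM. With P. chinensis the values were 45.0, 40.7 and 50.1 CPM (0.21, adjusted p = 0.173) and with B. chinense 40.1, 36.8 and 35.9 CPM, so these groups overlapped control. With P. umbellatus they were 20.4, 21.5 and 24.5 CPM, below every control, and BAX fell by 0.81 on the log2 scale (SE 0.11, adjusted p = 0.000618). Without replicate 2 the fall was of similar size (-0.79, adjusted p = 0.000396). After the GC and length correction it was -0.28 and no longer called (adjusted p = 0.116). BAX transcripts are 58.91% GC.

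BAK1 (chr6:33572547-33580293) encodes the effector that resides in the mitochondrial membrane, and 2 pseudogenes carry its name, so reads may be shared with them. In A549 its level rose with P. chinensis, from 21.2, 23.7 and 29.3 CPM to 36.4, 39.4 and 37.1 CPM (0.60 ± 0.11, adjusted p = 0.000777). With B. chinense (0.23, adjusted p = 0.149) and P. umbellatus (0.28, adjusted p = 0.0807) it did not pass the threshold, although it did without control replicate 3 (0.37, adjusted p = 0.0209, and 0.42, adjusted p = 0.0106). In Huh7 the controls lay close together at 29.65, 29.96 and 29.65 CPM, and BAK1 was at 38.4, 37.9 and 40.7 CPM with P. chinensis, above control in all 3 libraries but not called (0.39 ± 0.18, adjusted p = 0.151). The spread that the test used is that of all 12 Huh7 libraries, among them P. umbellatus with 24.6, 14.0 and 29.0 CPM. Against control, BAK1 with P. umbellatus was at -0.39 (adjusted p = 0.119), at -0.15 without replicate 2, at -0.61 without replicate 3 (adjusted p = 0.0147) and at 0.08 after the GC and length correction (adjusted p = 0.623). Without replicate 2 of P. umbellatus, whose 14.0 CPM is the lowest value, the rise with P. chinensis passed the threshold (0.39, adjusted p = 0.00262).

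BCL2L1, on chr20:31664452-31723989, encodes BCL-XL and also the shorter pro-apoptotic BCL-XS, which the gene totals do not separate. In A549 it rose from 224, 242 and 236 CPM in control to 339.7, 342 and 339.6 CPM with P. chinensis, 325, 335 and 319 CPM with B. chinense, and 355, 349 and 334 CPM with P. umbellatus. All 9 treated libraries lay above the controls. The log2 fold changes were 0.54 ± 0.04 (adjusted p = 2.36e-07), 0.48 ± 0.04 and 0.57 ± 0.04. In Huh7 the controls had 468, 479 and 467 CPM. P. chinensis (446, 459 and 481 CPM) and B. chinense (506, 442 and 447 CPM) overlapped control, with log2 fold changes of -0.03 and -0.02. P. umbellatus gave 373, 247 and 377 CPM, below control in each library, and BCL2L1 fell by 0.50 on the log2 scale (SE 0.13, adjusted p = 0.0104). Replicate 2 was the lowest. Without it the fall was -0.33 (adjusted p = 0.00132), and after the GC and length correction -0.09 (adjusted p = 0.241), no longer called. With the 6 libraries of this comparison alone it was -0.54 (adjusted p = 0.0727).

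MCL1, on chr1:150560895-150579738, encodes a short-lived guardian, and its locus overlaps ADAMTSL4 on the opposite strand. In A549 the controls had 207.2, 188 and 207.2 CPM, and the level rose to 283, 265 and 289 CPM with P. chinensis (0.47 ± 0.06, adjusted p = 1.23e-05). With B. chinense it was 242, 254 and 225 CPM (0.26 ± 0.06), and with P. umbellatus 269.5, 270.3 and 272 CPM (0.43 ± 0.06), again without overlap with control. In Huh7 the controls had 316, 322 and 309.6 CPM. P. chinensis gave 395, 401 and 408 CPM (0.34 ± 0.08, adjusted p = 0.00959) and P. umbellatus 434, 483 and 369.9 CPM (0.44 ± 0.08, adjusted p = 0.00246), while B. chinense, at 344, 342 and 354 CPM, was also above every control but not called. MCL1 was thus called, each time as higher, in 5 of the 6 comparisons with control, a number that BCL2L11 also reached but with different directions in the lines. With P. umbellatus in Huh7 it kept its call without replicate 2 (0.35) and after the correction (0.26), and lost it with the 6 libraries of the comparison alone (0.40, adjusted p = 0.0513).

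BCL2L11, on chr2:111119378-111168444, encodes BIM, a BH3-only activator of BAX and BAK1. It moved in opposite directions in the lines. In A549 the controls had 41.7, 40.8 and 35.5 CPM, and all treated libraries were lower: 25.5, 23.7 and 29.5 CPM with P. chinensis, 27.5, 24.5 and 25.4 CPM with B. chinense, and 24.1, 25.0 and 25.4 CPM with P. umbellatus. The falls were of similar size (-0.58 ± 0.10, -0.60 ± 0.10 and -0.66 ± 0.10, adjusted p = 0.000502 for P. chinensis). In Huh7 the controls had 46.3, 49.1 and 48.9 CPM, and the libraries with P. chinensis had 65.7, 62.2 and 66.7 CPM, so BCL2L11 rose by 0.43 ± 0.07 (adjusted p = 0.000863). With P. umbellatus it was at 55.2, 55.2 and 56.6 CPM, a rise of 0.21 ± 0.07 (adjusted p = 0.0339) that was called in 4 of the 12 runs that each left out 1 Huh7 library, with adjusted p from 0.0241 to 0.116, that was 0.22 without replicate 2 (adjusted p = 0.0241), and that was 0.09 after the GC and length correction (adjusted p = 0.367). With B. chinense the values of 56.6, 51.9 and 56.6 CPM were above control but not called (0.19, adjusted p = 0.254). The MIR4435-2HG gene overlaps this locus on the opposite strand.

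PMAIP1, on chr18:59899996-59904305, encodes NOXA, which binds MCL1 and marks it for degradation. Its level in A549 was 12.03, 10.6 and 14.1 CPM in control and 18.4, 18.2 and 20.5 CPM with P. chinensis, a rise of 0.63 ± 0.13 (adjusted p = 0.0016). B. chinense (14.6, 15.4 and 15.8 CPM) and P. umbellatus (between 14.56 and 15.66 CPM) lay above the controls without overlap but were not called (0.31, adjusted p = 0.0921, and 0.29, adjusted p = 0.106). Both passed the threshold after the GC and length correction, at 0.43 and 0.40, and without control replicate 3. In Huh7 PMAIP1 rose with P. chinensis, from 4.47, 5.18 and 5.05 CPM to 8.27, 7.98 and 9.11 CPM (0.77 ± 0.14, adjusted p = 0.00223), and with P. umbellatus, to 7.82, 9.65 and 8.24 CPM (0.79 ± 0.15, adjusted p = 0.00263). The latter rise was 0.70 without replicate 2 and 0.47 after the correction, still called. MCL1, the guardian that NOXA binds, rose in the same comparisons.

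BMF, on chr15:40087890-40108892, and BIK, on chr22:43110750-43129712, are BH3-only genes at low level in at least 1 line. In Huh7 BMF went from 24.5, 29.6 and 27.9 CPM in control to 67.4, 64.5 and 62.6 CPM with P. chinensis, a 2.37-fold rise (1.24 ± 0.11, adjusted p = 9.97e-06). With B. chinense it was 40.7, 41.7 and 41.6 CPM (0.60 ± 0.11, adjusted p = 0.0205), the sole member called for that extract in Huh7. That call was lost when any 1 library of control or of B. chinense was left out (adjusted p up to 0.113), although the fold change stayed between 0.52 and 0.65, and with the replicate number as a block (0.59, adjusted p = 0.056). With P. umbellatus BMF was at 37.6, 27.4 and 34.7 CPM, overlapping control (0.29, adjusted p = 0.0645), and passed the threshold without replicate 2 (0.40, adjusted p = 0.00441). In A549 the BMF counts were 7, 15 and 3 in control and 20, 16 and 28 with P. chinensis, and no change was called. BIK, whose protein sits at the endoplasmic reticulum, had counts of 0, 5 and 6 in the Huh7 controls and of 47, 28 and 27 with P. chinensis. Its rise of 2.52 ± 0.69 on the log2 scale (adjusted p = 0.00583) depends on the prior count of the fit because the control counts are so few. With P. umbellatus the BIK counts were 0, 1 and 4, with no call with or without replicate 2 or after the correction. In A549 BIK had 5 to 22 counts per library and no change was called.

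BID, on chr22:17734138-17774770, is cleaved by caspase 8 to link death receptors to mitochondria. It was called with no extract in either line, and the lowest unadjusted p in edgeR's test was 0.056, for B. chinense in Huh7. Its log2 fold changes ran from -0.19 to -0.05, with a 95% interval of -0.36 to 0.12 for P. chinensis in A549 and of -0.23 to 0.12 in Huh7. With P. umbellatus in Huh7 it was -0.08, and -0.07 both without replicate 2 and after the correction. BID protein is activated by cleavage, which RNA does not show.

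**Figure D3:**
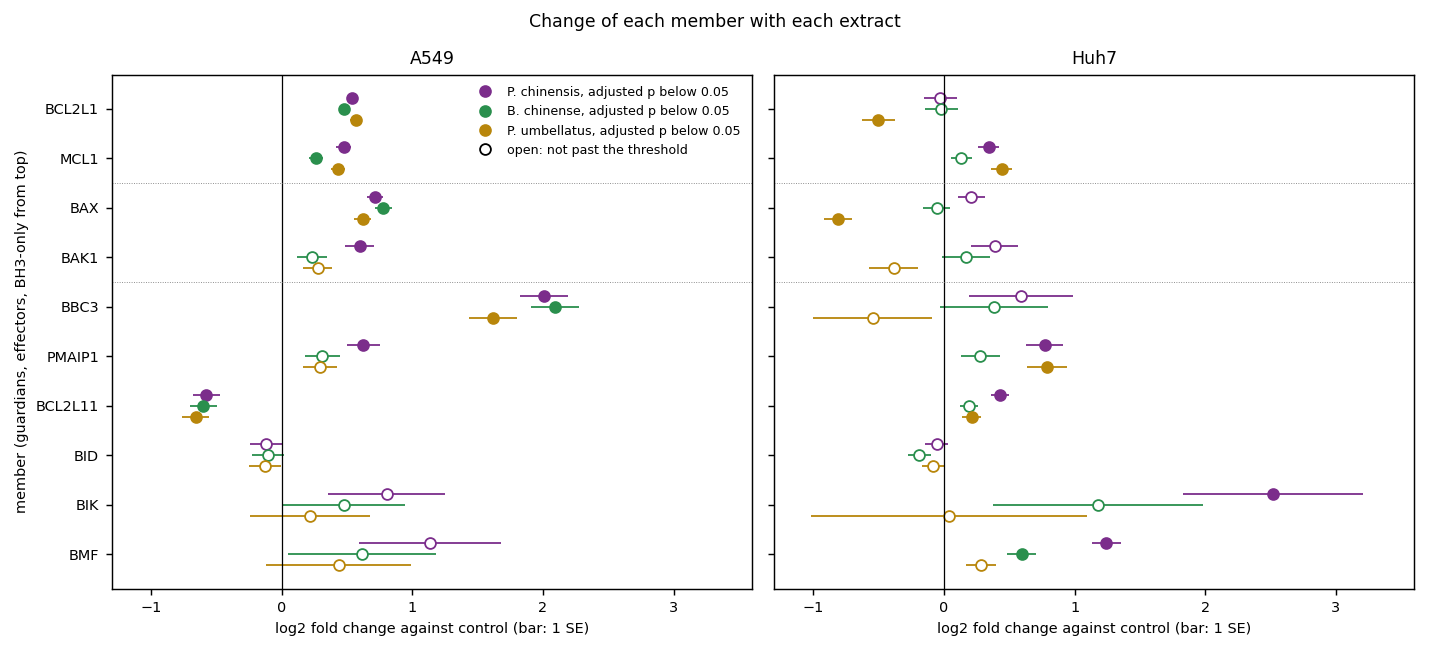
Log2 fold change against control of each member in A549 (left) and Huh7 (right) for the 3 extracts, with bars of 1 SE and filled points where the adjusted p of edgeR is below 0.05. In A549 the 3 extracts lie close together for BCL2L1, BAX, BBC3 and BCL2L11, and in Huh7 they spread, with BAX at 0.21, -0.06 and -0.81.

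In Huh7, 5 members rose with P. chinensis and 0 fell (MCL1, PMAIP1, BCL2L11, BIK and BMF), 1 rose with B. chinense and 0 fell, and with P. umbellatus 3 rose and 2 fell. The unadjusted p was below 0.05 for 6 rising and 0 falling members with P. chinensis, and for 2 and 0 with B. chinense, and DESeq2 called no falling member there either. Over all genes the shares that rose were 10.5%, 0.519% and 19.3%, and the shares that fell 10.5%, 0.757% and 17.8%. With P. umbellatus the members' values ran with the base composition of their transcripts. The members with the lowest values, BCL2L1, BAX, BAK1 and BBC3, had transcripts of 58.19%, 58.91%, 58.82% and 69.66% GC, and the members that rose, MCL1, PMAIP1 and BCL2L11, had 45.14%, 36.65% and 46.61%. BID, BMF and BIK, at 49.7%, 54.73% and 55.94%, had log2 fold changes of -0.08, 0.29 and 0.04. The part of library composition in these changes was not tested, since the correction removes any trend with GC content and length whatever its source. After it MCL1 and PMAIP1 remained called as higher and BMF became called (0.50, adjusted p = 0.000984). BCL2L1, BAX and BCL2L11 were no longer called. The members' median log2 fold change was 0.409 for P. chinensis, 0.18 for B. chinense and -0.02 for P. umbellatus, beside 0.011, 0 and 0.032 over all genes.

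The extracts were also compared with each other. In A549, edgeR called 0 of 10 members between any pair, beside 1.45% of all genes for P. chinensis against B. chinense, 3.01% for P. chinensis against P. umbellatus and 0.0513% for B. chinense against P. umbellatus. At an unadjusted p below 0.05 there were 3 members in each pair, and DESeq2 called 1 member, in the pair of P. chinensis and B. chinense, and none in the other pairs. For BBC3 the difference between P. chinensis and B. chinense was -0.08 (95% interval -0.40 to 0.24) and between P. chinensis and P. umbellatus 0.39 (0.07 to 0.72, adjusted p = 0.239). For BAX these differences were -0.07 (-0.19 to 0.05) and 0.09 (-0.03 to 0.21), and for BCL2L1 0.06 (-0.02 to 0.15) and -0.02 (-0.11 to 0.06). BAK1 and PMAIP1, which were called against control with P. chinensis alone, were not shown to differ between the extracts: BAK1 was 0.36 higher with P. chinensis than with B. chinense (0.15 to 0.58, adjusted p = 0.126) and PMAIP1 0.31 higher (0.06 to 0.57, adjusted p = 0.273).

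In Huh7 the extracts differed more. BMF was higher with P. chinensis than with B. chinense (0.65 ± 0.11, adjusted p = 0.00369), the 1 member called, beside 7.81% of all genes. At an unadjusted p below 0.05 in edgeR's test there were 6 members, all higher with P. chinensis. BCL2L11 (0.24, adjusted p = 0.0582) and PMAIP1 (0.49, adjusted p = 0.0606) came nearest to a call. Against P. umbellatus, 6 members were higher with P. chinensis, beside 35.4% of all genes called: BAX (1.02 ± 0.11, adjusted p = 0.000158), BMF (0.96 ± 0.11), BAK1 (0.77 ± 0.19), BCL2L1 (0.47 ± 0.13), BCL2L11 (0.22 ± 0.07) and BIK (2.48 ± 0.81). All 6 were also called without P. umbellatus replicate 2, with BCL2L1 at 0.30 and BAK1 at 0.53. After the GC and length correction 5 were called, with BAX at 0.47, BAK1 at 0.33, BMF at 0.77, BCL2L11 at 0.34 and BIK at 2.18, and BCL2L1 was not (0.08, adjusted p = 0.302). Between B. chinense and P. umbellatus, 5 members were called beside 27.3% of all genes: BCL2L1 (0.48), BAX (0.76) and BAK1 (0.55) were higher with B. chinense, and MCL1 (-0.31) and PMAIP1 (-0.51) were lower. Without P. umbellatus replicate 2, PMAIP1 was no longer called (-0.42, adjusted p = 0.0687) and the other 4 were, and after the GC and length correction none of these 5 was called. Log2 fold changes of these pairs also ran with GC content across genes (r = 0.57 for P. chinensis against P. umbellatus and r = 0.62 for B. chinense against P. umbellatus).

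The difference between the lines was tested directly, as an interaction over the 24 libraries. For P. chinensis 4 members responded differently, for B. chinense 4 and for P. umbellatus 5, beside 19.6%, 11.6% and 34.4% of the 12924 genes tested in both lines. BCL2L1, BAX and BBC3 had the higher response in A549 with every extract, and BCL2L11 the lower one. For BBC3 the response in A549 exceeded that in Huh7 by 1.48 ± 0.44 with P. chinensis (adjusted p = 0.0172, lost without A549 control replicate 3 or without Huh7 control replicate 2 or 3), by 1.76 ± 0.45 with B. chinense (adjusted p = 0.0108) and by 2.23 ± 0.48 with P. umbellatus (adjusted p = 0.000937) on the log2 scale. For BAX the excess was 0.56 ± 0.12, 0.88 ± 0.12 and 1.51 ± 0.12. For BCL2L11 the differences were -0.96 ± 0.11, -0.76 ± 0.12 and -0.79 ± 0.12. With P. umbellatus, leaving out Huh7 replicate 2 gave 1.87 for BBC3, 1.44 for BAX, 0.93 for BCL2L1 and 0.46 for BAK1, all still called. After the GC and length correction BBC3 stood at 1.12, BAX at 1.01 and BCL2L1 at 0.70, still called, whereas BAK1 stood at 0.28 and was not (adjusted p = 0.187). No difference between the lines was called for MCL1, PMAIP1, BID, BIK or BMF with any extract, and of these BIK with P. chinensis (unadjusted p = 0.014) and PMAIP1 with P. umbellatus (unadjusted p = 0.0328) came nearest.

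**Figure D4:**
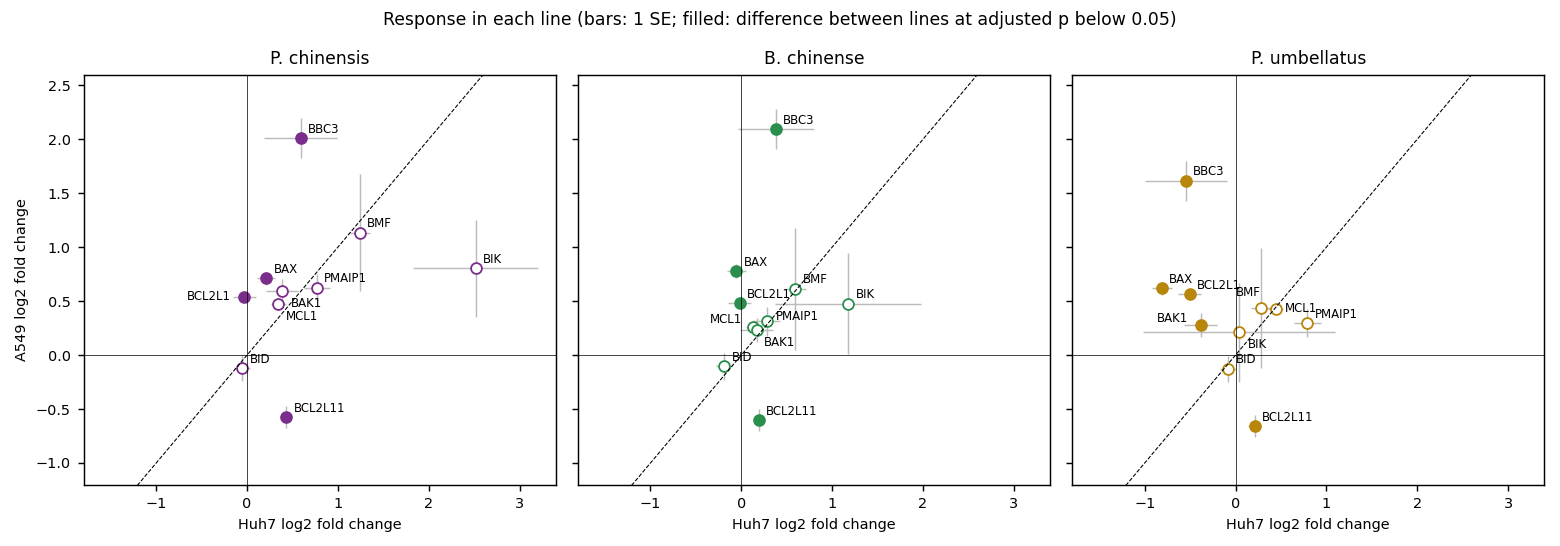
Log2 fold change against control in Huh7 (horizontal) and A549 (vertical) for the 10 members, with a panel per extract, bars of 1 SE, a dashed line of equal response and filled points where the interaction passed an adjusted p of 0.05. BBC3, BAX and BCL2L1 lie above the line and BCL2L11 below it in all 3 panels.

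The opposing sides of the family were set against each other in each library, as the log2 ratio of the summed CPM per kb of the 8 pro-apoptotic members to that of BCL2L1 and MCL1. This ratio is a description, with no test, and it weighs members by abundance, so BAX makes up 66.0% to 74.0% of the pro-apoptotic sum in A549 and 22.2% to 33.3% in Huh7 on group average. In A549 it was 0.03 ± 0.07 (SD, n = 3) in control, 0.13 ± 0.02 with P. chinensis and 0.26 ± 0.09 with B. chinense, whereas P. umbellatus gave -0.003 ± 0.035. Both sums rose: the pro-apoptotic sum from 117 to 135 in control to at least 179 in each treated library, and the anti-apoptotic sum from 120.1 to 126 to at least 158. In Huh7 the ratio was -1.39 ± 0.07 in control, -1.16 ± 0.07 with P. chinensis and -1.38 ± 0.02 with B. chinense. P. umbellatus gave -1.53 ± 0.11, from libraries at -1.625, -1.565 and -1.405. The gap between the control groups of the lines was wider than any shift with an extract. The ratio of BAX to BCL2L1 in A549 went from 0.20 ± 0.10 to 0.37 ± 0.01, 0.50 ± 0.11 and 0.26 ± 0.07 on the log2 scale. The extracts are in the order P. chinensis, B. chinense and P. umbellatus. Both genes rose, BAX by 0.71, 0.78 and 0.62 and BCL2L1 by 0.54, 0.48 and 0.57. The ratio of BBC3 to MCL1 moved further, from -4.67 ± 0.48 in control to -3.05 ± 0.11, -2.75 ± 0.16 and -3.40 ± 0.05. In Huh7 BBC3 over MCL1 was -6.03 ± 0.74 in control, -5.67 ± 0.25 with P. chinensis and -5.66 ± 0.22 with B. chinense. With P. umbellatus it was -7.28 ± 1.32, from libraries at -7.24, -8.613 and -5.976. Replicate 2 of that group rests on 4 BBC3 counts, and replicate 3 lies within the range of the controls. None of these ratios was recomputed after the GC and length correction. The shifts of the summed ratio in A549 depend on BAX: without it they were -0.13, -0.16 and -0.37. They also depend on the division by length: without it the shift with P. chinensis turned to -0.04, and those with B. chinense and P. umbellatus were 0.08 and -0.17.

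**Figure D5:**
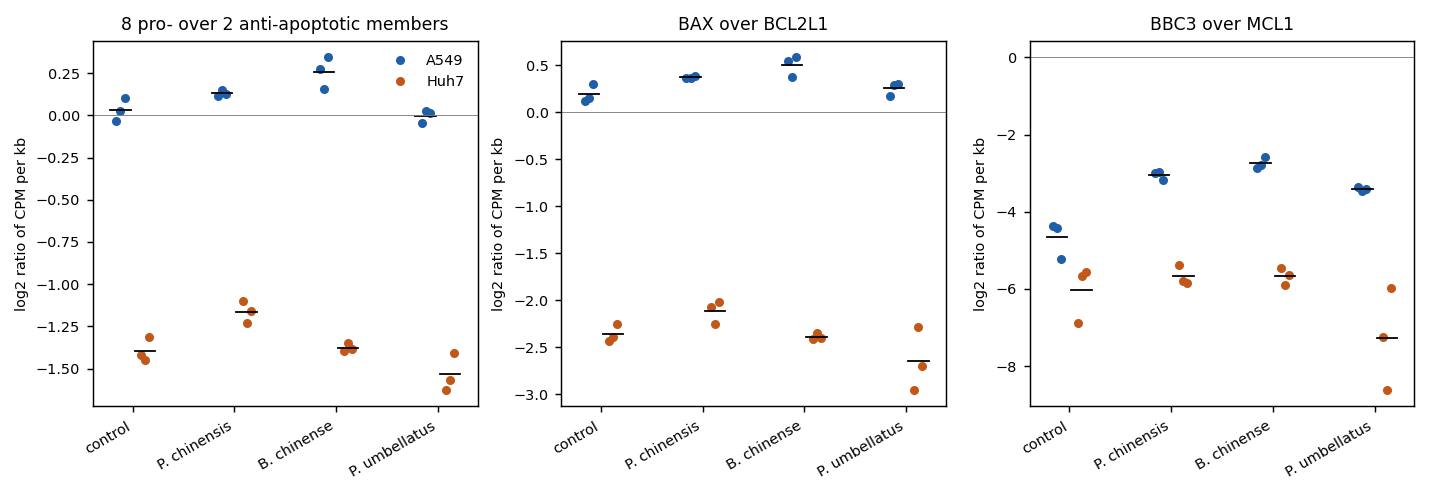
Log2 ratios of CPM per kb in each library: the summed pro-apoptotic over the summed anti-apoptotic members (left), BAX over BCL2L1 (middle) and BBC3 over MCL1 (right), with A549 in blue, Huh7 in orange and a bar at the mean of 3. In A549 the summed ratio stays between -0.043 and 0.343 while BBC3 over MCL1 lies higher in every treated library than in control.

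Other genes of the pathway were taken as lists, whose counts stand beside the shares of all genes: in A549 15.8%, 13.1% and 13.4% rose and 17.1%, 15% and 14.8% fell, and in Huh7 10.5%, 0.519% and 19.3% rose and 10.5%, 0.757% and 17.8% fell, with the extracts in the order P. chinensis, B. chinense and P. umbellatus. Of 15 other BCL2 homologues and BH3-like genes, 13 were tested. In A549 BCL2A1, a further guardian and a known NF-kB target, rose with P. chinensis (1.25 ± 0.27, adjusted p = 0.00174) and P. umbellatus (0.84 ± 0.27), and BNIP3L, a mitophagy receptor, rose with all 3 extracts (0.45, 0.28 and 0.34), while BCL2L12 fell with P. chinensis (-0.66 ± 0.22). In Huh7 edgeR called none with P. chinensis (1 at an unadjusted p below 0.05) or B. chinense (0 at that level), and 4 fell with P. umbellatus, in the comparison that ran with GC content, among them BAD (-1.12 ± 0.31), BCL2L12 (-0.98 ± 0.19) and BOK (-0.80 ± 0.24). Of 16 genes of mitochondrial permeabilization and the apoptosome, 4 fell in A549 with each extract, VDAC1 (-0.37 with P. chinensis), VDAC2, VDAC3 and CYCS (cytochrome c, -0.28), and 1, HTRA2, rose with P. chinensis (0.51). In Huh7, 3 rose with P. chinensis, among them VDAC2 (0.43 ± 0.09), 0 were called with B. chinense (1 at an unadjusted p below 0.05) and 5 rose with P. umbellatus, among them DNM1L (0.47) and OPA1 (0.40).

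The genes that control the family and the p53 targets outside it were also taken as lists, and their counts stand beside the same shares of all genes. Of 22 listed regulators, 19 were tested in A549, and 9 rose and 5 fell with P. chinensis, 5 rose and 6 fell with B. chinense, and 6 rose and 3 fell with P. umbellatus. ATF3, a stress-induced factor, rose by 3.003 ± 0.36, 1.89 ± 0.37 and 1.67 ± 0.37, and MDM2, the ligase that degrades p53 and is itself a p53 target, by 1.97, 1.60 and 1.41. In Huh7, where 21 were tested, 4 rose and 5 fell with P. chinensis, 0 rose and 1 fell with B. chinense, and 6 rose and 3 fell with P. umbellatus. ATF3 (1.82 ± 0.15) and DDIT3 (1.29 ± 0.13), the latter encoding CHOP, rose with P. chinensis there, and TRIB3 fell with every extract (-0.96, -0.66 and -0.87). Of 20 p53 targets outside the family, 19 were tested, and all 19 rose in A549 with each extract, with medians of 1.277, 1.082 and 1.047, led by TP53INP1 (2.69, 2.48 and 2.18) and CDKN1A (2.54, 2.41 and 2.20). In Huh7, 6 rose and 1 fell with P. chinensis, 0 were called with B. chinense (4 at an unadjusted p below 0.05), and 2 rose and 3 fell with P. umbellatus, with medians of 0.049, 0.059 and -0.002. The interaction was called as higher in A549 for 17, 18 and 19 of the 19, beside 19.6%, 11.6% and 34.4% of all genes called in either direction. Across genes, the interaction with P. umbellatus also ran with GC content (r = 0.55). The part of the listed genes in the members' changes was not tested.

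The genes whose pattern was most like that of 3 members were found by Pearson's r over the 24 libraries, on log2(CPM + 1) centred within each line, among 12923 other genes. For BBC3 they were IP6K2 (0.911), BLCAP (0.908) and KIAA0513 (0.905), for BAX DYRK1B (0.961), PRKD2 (0.929) and MAGED2 (0.909), and for BCL2L1 TMEM132A (0.976), PLXNB2 (0.965) and ARSA (0.963). Among the members, BCL2L1 ranked 24 for BAX (0.867) and BBC3 ranked 154 (0.811), although BCL2L1 and BAX have opposite functions. MCL1 had r = 0.127 with BAX and 0.106 with BCL2L1, and BCL2L11 had -0.52 with BBC3. The points share libraries, and with them the GC trend of Huh7 with P. umbellatus, so these coefficients are given as descriptions.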

How the data were processed

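RNA sequencing of 24 libraries (2 lines, 4 conditions, 3 replicates) was used. The authors estimated counts with kallisto against GRCh38.p13 transcripts and deposited expected counts per gene as whole numbers, not normalized, for genes they had filtered to protein-coding ones with a mean count above 5. A stranded kit was used, and the strand setting and the summing of transcripts to genes are not given in the sources used here. Of 14585 identifiers, 14584 matched a GENCODE symbol. Counts were analysed in R 4.3.3 with edgeR 4.0.16 (TMM, quasi-likelihood test, two-sided, prior count 2) in 1 fit of 12 libraries per line on genes with a mean above 5 in that line (13633 in A549, 13875 in Huh7), with Benjamini-Hochberg adjustment over all genes tested. The study used DESeq2, which is an alternative here (1.42.0), beside voom of limma 3.58.1, RLE size factors, other filters, the 6 libraries compared, a replicate block, a loess correction for GC content and transcript length, and leaving out each library. Interactions were recomputed under the same alternatives, except the 6 libraries compared, a choice made after seeing the data. Standard errors come from the fit, and the 95% intervals are normal approximations built from them. They are narrower than edgeR's test implies, so an interval can exclude no change where the test does not. For BAK1 in A549 with B. chinense the interval was 0.009 to 0.456, with an unadjusted p of 0.059 in edgeR's test. Replicates of a number did not deviate together (r from -0.062 to 0.052), so fits are unpaired. Counts of simulated data with known changes were used to test the scripts. All members are named. Of each list, the genes named are those called and among the 3 largest changes. The members and lists were chosen with earlier results of these data known. Promoters are RefSeq windows. Proteins and the study's blots were not analysed here. One gene of the pathway lists is counted in its list and is not reported here by name.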

Additional observations from a re-analysis of the deposited data

Results flagged for a closer look

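The results singled out here are the members whose log2 fold change against control differed between A549 and Huh7 in the interaction test of edgeR, given as A549 minus Huh7 with Benjamini-Hochberg adjusted p over 12924 genes. With P. chinensis these were BCL2L1 (0.62, adjusted p = 0.00265), BAX (0.56, adjusted p = 0.00127), BBC3 (1.48, adjusted p = 0.0172) and BCL2L11 (-0.96, adjusted p = 2.84e-06). With B. chinense they were BCL2L1 (0.54, adjusted p = 0.014), BAX (0.88, adjusted p = 2.73e-05), BBC3 (1.76, adjusted p = 0.0108) and BCL2L11 (-0.76, adjusted p = 0.000121). With P. umbellatus they were BCL2L1 (1.15, adjusted p = 4.92e-06), BAX (1.51, adjusted p = 2.5e-08), BAK1 (0.74, adjusted p = 0.0146), BBC3 (2.23, adjusted p = 0.000937) and BCL2L11 (-0.79, adjusted p = 3.54e-05).

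Each was recomputed under up to 31 alternatives. BCL2L1, BAX and BCL2L11 kept their call with every extract under all 31, and BBC3 with B. chinense and P. umbellatus under all 30 that could be run for it. The alternative that BBC3 lacks is the stricter filter, a mean count above 50 in each line, which it did not pass. With P. umbellatus the lowest values for BCL2L1 (0.70), BAX (1.01), BBC3 (1.12) and BAK1 (0.28, adjusted p = 0.187) came from the correction for GC content and transcript length. BBC3 with P. chinensis kept its call in 27 of 30 alternatives, and lost it without A549 control replicate 3 (1.27, adjusted p = 0.0536) and without Huh7 control replicate 2 (1.31, adjusted p = 0.0571) or 3 (1.23, adjusted p = 0.0773). Of the control libraries, only the omission of A549 replicate 1 (1.64) or 2 (1.55) or Huh7 replicate 1 (1.74) left it called. Many of the 27 left out a library of B. chinense or P. umbellatus, which is not part of this comparison. BCL2L11 was the sole member with called changes of opposite direction in the lines for P. chinensis, lower in all 3 A549 libraries and higher in all 3 Huh7 libraries than in any control.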

How the results depend on the processing

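Of the 60 log2 fold changes of members against control, DESeq2 and the omission of the filter on low counts left all 60 on their side of the threshold and in their direction, the RLE size factors and the replicate number as a block 59 each, voom and the fit on the 6 libraries compared 55 each, and the GC and length correction 49. Few counts limit BIK and BMF in A549 and BIK and BBC3 in Huh7. BBC3 had 4 to 28 counts per library with P. umbellatus in Huh7. The number of members called for Huh7 B. chinense against control (1) was 0 with the replicate block and 2 with the 6 libraries compared, and the block changed no other count by over 1.5 times. The replicate numbers share no pairing in the data, since 0 of 18 pairs per line had a correlation above 0.1. For Huh7 P. umbellatus against control (5) the count was 3 with the GC correction and 2 with the 6 libraries. For Huh7 P. chinensis against B. chinense (1) it was 3 with DESeq2 or a mean count above 50, 4 with voom or the GC correction and 5 with the 6 libraries, for P. chinensis against P. umbellatus (6) it was 3 with the 6 libraries, and for B. chinense against P. umbellatus (5) it was 0 with the GC correction and 0 with the 6 libraries. In A549 DESeq2 called 1 member between P. chinensis and B. chinense. The cause of these shifts was not tested, beyond the fewer samples of the 6-library fit.

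When each library was left out in turn, the counts were 7 to 8, 5 to 7 and 5 to 7 against control in A549 (extracts in the order P. chinensis, B. chinense, P. umbellatus), 0 to 0 for the A549 pairs, 5 to 6, 0 to 1 and 4 to 7 against control in Huh7, 1 to 4 for Huh7 P. chinensis against B. chinense, 5 to 8 for P. chinensis against P. umbellatus, 1 to 6 for B. chinense against P. umbellatus, 3 to 5, 4 to 4 and 5 to 6 for the interactions and 8 to 10 for the control groups. Huh7 P. chinensis against B. chinense reached 4 without P. umbellatus replicate 2 and 3 without its replicate 3. Huh7 B. chinense against P. umbellatus fell to 3 without P. chinensis replicate 1 or 2, to 1 without B. chinense replicate 1 and to 2 without its replicate 2 or 3. Huh7 B. chinense against control fell to 0 without any 1 of its own or the control libraries. Directions turned, none of them called, for BIK in Huh7 with P. umbellatus under voom (-0.42) and when a library was left out (from -0.67 to 0.41, and -0.33 without control replicate 1), for BIK in A549 with P. umbellatus when replicate 1 was left out (-0.17), for BCL2L1 in Huh7 with B. chinense when a library was left out (0.01 and 0.02), and under the GC correction for BCL2L1 (0.01) and BAX (0.01) in Huh7 with B. chinense and for BAK1 (0.08) and BBC3 (0.48) in Huh7 with P. umbellatus.

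The shift of the summed ratio from control was 0.10, 0.23 and -0.03 in A549 and 0.23, 0.02 and -0.14 in Huh7, with the extracts in that order. In A549 it was -0.04, 0.08 and -0.17 without division by length and -0.13, -0.16 and -0.37 without BAX, and without BCL2L1 0.36 for B. chinense and 0.05 for P. umbellatus. In Huh7 it was 0.42, 0.12 and -0.02 with the median transcript length and 0.00, -0.08 and -0.67 without BCL2L1, and without MCL1 0.37 for P. chinensis and 0.29 for P. umbellatus, and 0.08 for P. umbellatus without BAX.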
